A study of Homo sapiens
Rattus norvegicus and Homo sapiens with 10 samples.

Results

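Wnt ligands, the Frizzled receptors that bind them and the secreted proteins classed as antagonists were read out in tumours grafted into rat brain. The tumours were of U251N, an established line of human glioblastoma cells. Members were the genes named WNT, FZD, DKK or SFRP followed by a number, plus FRZB and WIF1, which gave 39 of the 62754 genes in the table: 19 ligands, 10 receptors and 10 antagonists. Total RNA was sequenced from 10 libraries. The primary group held 3 tumours grown in the brain of adult female immune-compromised RNU/RNU rats and never ablated. The recurrent group held 3 tumours in the same kind of host that regrew after LITT, short for laser interstitial thermal therapy: an inserted fibre heats the tumour, here with the Visualase system under diffusion-weighted imaging. The control group held 3 brains described as without a tumour, of which replicate 1 was a failed graft and replicates 2 and 3 were procedural controls. The last library came from the line grown in vitro without treatment. All tumours therefore came from 1 cell line, and the rats, which lack T cells, keep other host cells whose RNA enters the tissue. The labels do not tie each library to a separate animal, so p-values measure the spread between these libraries, part of which may be technical.

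Wnt proteins are lipid-modified secreted signals. In the canonical branch a Wnt brings a Frizzled together with an LRP coreceptor, the complex that destroys β-catenin is stopped, and β-catenin joins TCF and LEF factors on target genes. Other Wnts, with WNT5A as the textbook case, act through Frizzled with ROR or RYK coreceptors on cell polarity and calcium. DKK proteins, apart from the divergent DKK3, block the LRP coreceptor, whereas SFRP proteins, FRZB and WIF1 bind the ligand itself. In glioblastoma the pathway is known for its links to stem-like growth and to invasion.

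The controls were far shallower than the tumours. Counts outside structural small RNA genes numbered 17742756 to 37328225 in the tumours and 61533249 in the culture, but 107073, 180228 and 2861835 in control replicates 1, 2 and 3. A level is given below as CPM, the count of a gene scaled by the library's total of these counts. A count of 0 allows up to 3 counts, or 0.0804 to 0.169 CPM in a tumour, 0.0488 CPM in the culture and 28.0, 16.6 and 1.05 CPM in the 3 controls. Such limits and the Poisson intervals below cover counting error only. Graft reads made up 42.52% to 64.40% of the primary libraries and 29.44% to 42.67% of the recurrent ones, per the labels. Control replicate 3, at 4.90% graft reads against 0.33% and 0.55% in the other controls, carried the U251N marker list at 12872 CPM, above the tumours' 10381 to 12476 CPM. It held 3287 member counts where the other controls held 18 and 53, so the comparison of tumours with controls is given with and without it.

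Part of the human Wnt family gave no counts. In the tumours 27 of the 39 members had a count, as did 30188 of the 62754 genes in the table. Of the 39 members, 10 had no count in any library: the ligands WNT2, WNT3A, WNT8A and WNT8B, the receptors FZD9 and FZD10, and the antagonists DKK4, SFRP2, SFRP5 and WIF1. WNT9B and WNT16 added 1 count each, both in control replicate 3, which left 12 members with no count in any tumour. At the other end, 21 members had a count in every tumour and 16 averaged at least 100 counts over the tumours. These 16 were 4 ligands (WNT3, WNT5A, WNT5B and WNT7B), 8 receptors (FZD1 to FZD8) and 4 antagonists (DKK1, DKK3, SFRP1 and SFRP4). WNT1, WNT4, WNT6, WNT7A and WNT10B had counts in some tumours, at most 9 in any tumour.

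**Figure D1:**
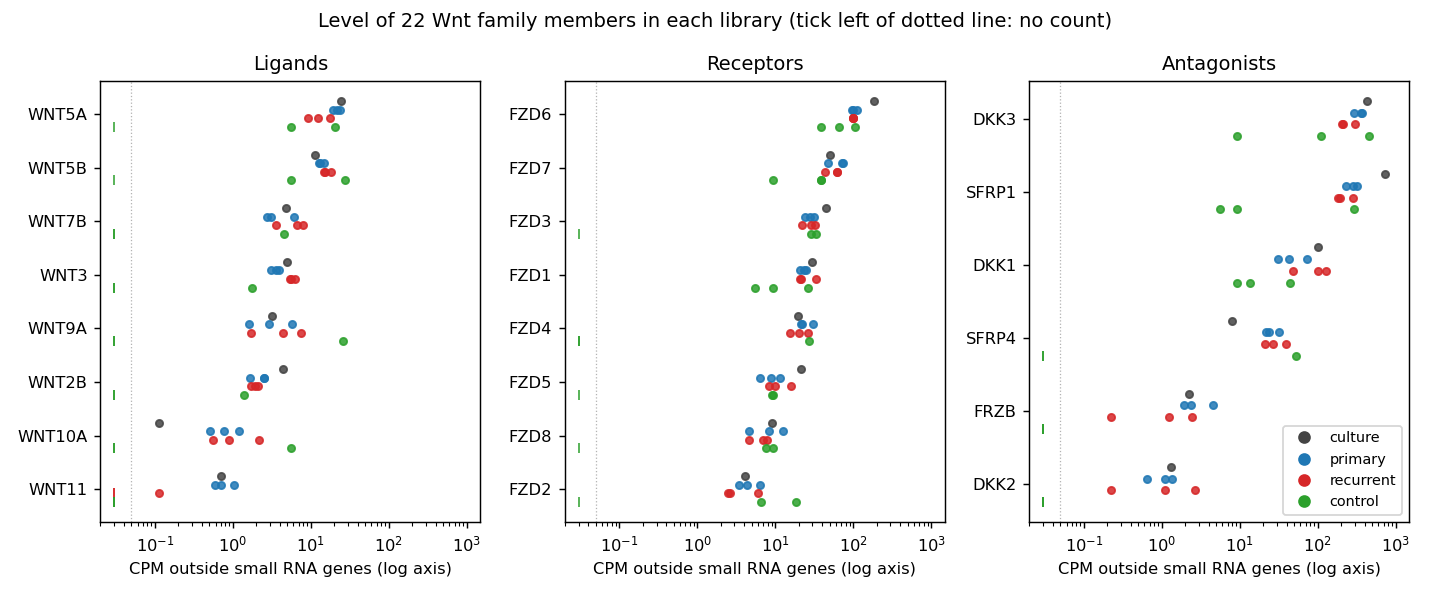
Each point is the level of a gene in 1 library, in CPM of counts outside structural small RNA genes on a log axis, coloured by group, and a tick left of the dotted line is a library with no count. The 22 members tested between primary and recurrent tumours are shown, with FZD6 leading the receptors at 95.5 to 113 CPM in the 6 tumours and WNT11 lowest among the ligands in the recurrent tumours.

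Antagonist transcripts stood far above ligand transcripts. Levels of different genes were compared per kilobase of exon, so that long genes do not count for more. Per kilobase, the antagonists summed to 156 ± 10.9 CPM in the primary group and 145 ± 9.15 CPM in the recurrent group (SD, n = 3 each). The receptors summed to 56.4 ± 4.16 and 52.2 ± 3.87 CPM per kilobase, and the ligands to 9.36 ± 0.929 and 9.90 ± 0.542 (SD, n = 3 each). In the culture the 3 sums were 285, 76.2 and 9.93 CPM per kilobase. The order antagonist, receptor, ligand was therefore the same in primary tumours, recurrent tumours and culture, and the culture held more antagonist and receptor RNA than any tumour. DKK3, which does not block LRP in the classical way, made up 27.8% to 47.3% of the antagonist level in the tumours.

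DKK3 and SFRP1 led the order of mean levels per kilobase, at 57.4 ± 14 and 52.4 ± 11.7 CPM (SD, n = 6 tumours). Their difference was smaller than the spread between tumours. Within each library, however, DKK3 lay above SFRP1 in all 6 tumours, most narrowly in recurrent replicate 1. DKK1 followed at 32.2 ± 17.4, FZD6 at 24.8 ± 1.52, FZD7 at 15.6 ± 3.17 and SFRP4 at 7.60 ± 1.94 CPM per kilobase (SD, n = 6). DKK1 and FZD6 did not differ beyond the spread of DKK1. The order was not the same in every tumour: in recurrent replicates 2 and 3 DKK1 came first. It stood there at 58.8 and 46.5 CPM per kilobase, ahead of DKK3 at 40.5 and 41.6. The lead of DKK1 in those tumours depended on the length used. With the longest coding transcript in place of all exons, DKK3 led DKK1 in those tumours, at 77.2 and 79.5 against 72.4 and 57.3. On that length DKK3 and SFRP1 averaged 110 ± 26.7 and 55.5 ± 12.4 CPM per kilobase (SD, n = 6). DKK3 again lay above SFRP1 in every tumour, so the length changed the size of their difference and not its direction. By all exons, WNT5B, FZD1, FZD4 and WNT5A came below SFRP4, at 3.44 ± 0.453, 3.44 ± 0.662, 3.09 ± 0.725 and 2.36 ± 0.743 CPM per kilobase (SD, n = 6). WNT5B, FZD1 and FZD4 stood within each other's spread, whereas WNT5B lay above WNT5A in every tumour. The remaining members averaged at most 2.03 CPM per kilobase, the level of FZD3.

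**Figure D2:**
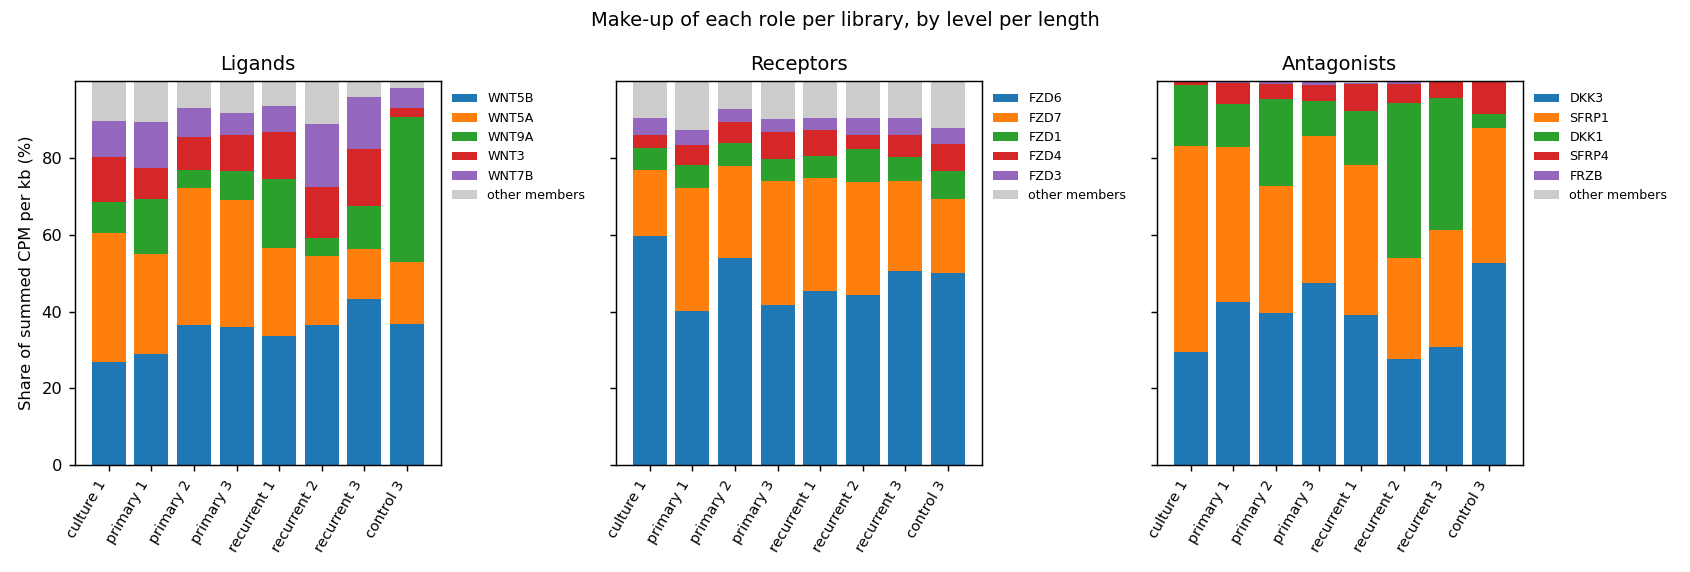
Bars give, for each library, the share in percent of the summed CPM per kilobase of the ligands, receptors and antagonists that each of the 5 leading genes took, with the other members in grey, for the culture, the 6 tumours and control replicate 3. FZD6 took 40.2% to 53.9% of the receptor level in the tumours, and DKK1 took 40.3% and 34.4% of the antagonist level in recurrent replicates 2 and 3. Lengths are the union of exons. The lead of DKK1 over DKK3 in those replicates did not hold by the longest coding transcript.

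Among the receptors, FZD6 (chromosome 8, 103298433 to 103332866, plus strand), which is best known for tissue polarity, was the most abundant and the least variable. It stood at 95.5, 113 and 100.5 CPM in the primary tumours, 99.1, 99.2 and 98.0 CPM in the recurrent tumours and 185 CPM in the culture. Its coefficient of variation over the 6 tumours was 6.13%, against 54.1% for DKK1. FZD7 (chromosome 2, 202034587 to 202038445, plus strand), a receptor tied to stem cell renewal through β-catenin, came next, at 72.0, 47.9 and 73.4 CPM in the primary group and 61.1, 62.3 and 43.4 CPM in the recurrent group. Together these 2 genes held most of the receptor level in each tumour, since FZD7 added 23.6% to 32.2% to the share of FZD6.

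FZD1, FZD3 and FZD4 formed a middle tier. FZD1 stood at 24.5, 20.9 and 23.2 CPM in the primary group and 21.2, 32.9 and 21.0 CPM in the recurrent group. FZD3, which guides growing axons, stood at 31.7, 24.1 and 28.0 CPM in the primary group and 22.3, 32.6 and 29 CPM in the recurrent group. FZD4, which also binds norrin in retinal vessels, stood at 22.2, 21.4 and 30.9 CPM in the primary group and 26.7, 15.5 and 20.3 CPM in the recurrent group. Primary and recurrent values overlapped for each of these 3 genes. The lowest tier held FZD5 at 6.39 to 16.1 CPM, FZD8 at 4.62 to 12.7 CPM and FZD2 at 2.45 to 6.33 CPM over the 6 tumours, again with overlapping groups.

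FZD1, FZD2 and FZD7 have closely related coding sequences, so their longest common stretches are shown to judge how far their reads can be told apart. Aligned coding bases were identical at 82.4% between FZD1 and FZD2, 82.6% between FZD2 and FZD7 and 81.3% between FZD1 and FZD7. In the lines below, from the GENCODE release 29 coding transcripts on GRCh38, capitals mark the bases that both genes share without a break and lower case the 15 bases on each side. The pair of FZD1 and FZD2 shares 81 bases, the longest run between any of the 232 pairs within the WNT, FZD, DKK and SFRP families.
FZD1 at chr7:91266047-91266157, plus strand: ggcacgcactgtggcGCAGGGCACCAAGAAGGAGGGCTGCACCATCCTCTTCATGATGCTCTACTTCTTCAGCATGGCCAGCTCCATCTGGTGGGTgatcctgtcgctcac
FZD2 at chr17:44558630-44558740, plus strand: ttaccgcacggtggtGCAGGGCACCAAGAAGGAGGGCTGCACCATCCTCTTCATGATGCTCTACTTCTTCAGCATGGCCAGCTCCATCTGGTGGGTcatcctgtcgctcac
FZD2 and FZD7 share 69 bases elsewhere in the coding sequence.
FZD2 at chr17:44557773-44557871, plus strand: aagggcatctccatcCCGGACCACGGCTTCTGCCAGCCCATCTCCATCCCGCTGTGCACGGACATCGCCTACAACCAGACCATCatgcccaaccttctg
FZD7 at chr2:202034762-202034860, plus strand: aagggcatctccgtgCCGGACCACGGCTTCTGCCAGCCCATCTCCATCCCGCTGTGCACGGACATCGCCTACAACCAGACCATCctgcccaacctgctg
No pair shared a run as long as the 100-base read, so in coding sequence a full-length read without errors crosses at least 1 difference between any 2 of these genes. Untranslated bases were not compared. The estimated counts of FZD7 and FZD2 were fractional in primary replicate 1, at 1664.6 and 146.4, and in recurrent replicate 2, at 1474.95 and 62.05, so some reads were divided between genes in both tumour groups. The level of FZD2, the lowest of the 3, is the one such a division could move most, and it is uncertain to that extent.

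Among the ligands, WNT5B and WNT5A led on the mean of the 6 tumours, although in recurrent replicate 3 WNT3 and WNT7B, at 14.7% and 13.6% of the ligand level per kilobase, stood above WNT5A at 13%. WNT5B (chromosome 12, 1529891 to 1647243, plus strand), a close relative of WNT5A, stood at 12.7, 13.1 and 14.8 CPM in the primary group and 15.2, 14.9 and 18.2 CPM in the recurrent group. WNT5A (chromosome 3, 55465715 to 55490539, minus strand) stood at 19.5, 22 and 23.4 CPM in the primary group and 17.9, 12.5 and 9.35 CPM in the recurrent group. For neither gene did the groups overlap: all recurrent tumours lay above all primary tumours for WNT5B and below them for WNT5A.

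The coding sequences of WNT5A and WNT5B were identical at 80.7% of aligned bases. Their longest common run is 35 bases, shown because the ratio of these 2 genes is given next and rests on telling their reads apart.
WNT5A at chr3:55470130-55470194, minus strand: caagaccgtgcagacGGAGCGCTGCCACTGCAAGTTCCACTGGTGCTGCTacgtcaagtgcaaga
WNT5B at chr12:1646150-1646214, plus strand: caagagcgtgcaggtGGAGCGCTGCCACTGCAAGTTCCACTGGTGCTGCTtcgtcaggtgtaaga
Within each library, the level of WNT5A per kilobase divided by that of WNT5B was 0.893, 0.976 and 0.919 in the primary tumours and 0.686, 0.489 and 0.299 in the recurrent tumours. It was 1.25 in the culture. In control replicate 3 it was 0.435, from 59 and 79 counts, which lies inside the range of the recurrent tumours. This ratio does not depend on library scaling. Among culture and tumours the order was thus culture, primary tumours, recurrent tumours, with no overlap between the tumour groups. Recurrent replicate 1, at 0.686, lay nearest the primary tumours. Its library name starts with IL, as theirs do, and those of replicates 2 and 3 with NL. In replicates 2 and 3 the prefix and regrowth cannot be told apart. The ratio was formed after the opposite directions of the 2 genes had been seen and was not tested.

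The next ligands were WNT3, WNT7B and WNT9A, at 1.07 ± 0.294, 0.999 ± 0.428 and 0.999 ± 0.586 CPM per kilobase (SD, n = 6), which did not differ beyond their spread. WNT3 (chromosome 17, 46762506 to 46833154, minus strand), a canonical ligand, stood at 3.59, 3.08 and 3.91 CPM in the primary group and 5.58, 5.45 and 6.23 CPM in the recurrent group, without overlap. WNT7B, which acts on brain endothelium during development, stood at 6.18, 3.13 and 2.73 CPM in the primary group and 3.61, 7.90 and 6.72 CPM in the recurrent group, with overlap. WNT9A ranged from 1.61 to 7.44 CPM over the 6 tumours and was lowest in primary replicate 2 and recurrent replicate 2.

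WNT11 (chromosome 11, 76186325 to 76210736, minus strand), a ligand of the β-catenin-independent branch, was a low transcript with the sharpest contrast between the tumour groups. It had 24, 13 and 26 counts in the primary tumours, 2, 0 and 0 in the recurrent tumours, 43 in the culture and none in the controls. As levels, the primary tumours stood at 1.04, 0.598 and 0.696 CPM, and recurrent replicate 1 at 0.113 CPM. The pooled primary level was 24.5 times the pooled recurrent level (exact 95% interval for counting error 6.50 to 207, from 63 and 2 counts). Both recurrent counts came from replicate 1, so this ratio has no value without that tumour. All 3 primary tumours lay above all 3 recurrent tumours, and the 2 tumours without a count had limits of 0.127 and 0.134 CPM, below every primary value.

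The central comparison asked how tumours regrown after LITT differ from those that were not ablated. No member passed the test. Of the 39 members, 22 passed the filter on low counts and were tested, 8 ligands, 8 receptors and 6 antagonists, and 0 had an adjusted p under 0.05 (edgeR quasi-likelihood F test, Benjamini-Hochberg over 15928 genes). That call was made for 0.00628% of all tested genes, or 1 gene. At an unadjusted p under 0.05 stood 5 members, WNT11, WNT5A, DKK3, DKK1 and WNT3, against 8.38% of all tested genes. The median log2 fold change of recurrent over primary was -0.04 over the 22 members and -0.01 over all genes, with 10 members positive and 12 negative. Groups did not overlap for 4 of the 22 members, WNT5B and WNT3 above and WNT5A and WNT11 below. Of these, WNT11 passed the filter only through the primary tumours. Its separation, its place among the 5 members and its fold change are therefore a description. Over all tested genes, 8.59% lay wholly above in the recurrent tumours, 6.72% wholly below and 15.3% either way.

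**Figure D3:**
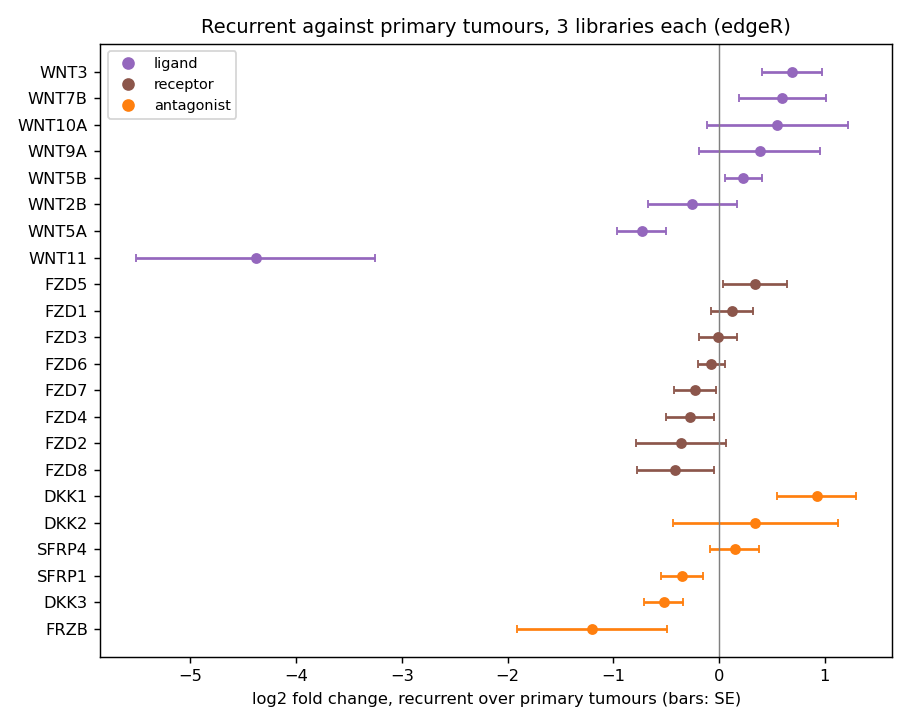
Points give the log2 fold change of recurrent over primary tumours for the 22 tested members, coloured by role, and bars give the standard error from edgeR with 3 libraries a group. WNT11 lies farthest from 0 at -4.38 with a standard error of 1.13, and the 8 receptors lie between -0.41 and 0.34.

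By role, the log2 fold changes of the receptors spanned -0.41 to 0.34, those of the antagonists -1.20 to 0.92, and those of the ligands without WNT11 -0.73 to 0.69. The 8 ligands had a median log2 fold change of 0.31, with 5 positive and 3 negative. WNT11, as a description, had a log2 fold change of -4.38 ± 1.13 (SE; edgeR adjusted p = 0.430). WNT5A had one of -0.73 ± 0.23 (SE; edgeR adjusted p = 0.521) and WNT3 one of 0.69 ± 0.29 (SE; edgeR adjusted p = 0.589). WNT5B, whose groups also did not overlap, had 0.23 ± 0.17 (SE; edgeR adjusted p = 0.711). Levels of WNT5A averaged 21.6 ± 1.99 CPM in the primary group and 13.2 ± 4.31 CPM in the recurrent group, and those of WNT3 3.53 ± 0.419 and 5.75 ± 0.421 CPM (SD, n = 3 each). The WNT11 fold depends on how 2 empty libraries are treated: it was -7.33 without recurrent replicate 1 and -2.76 for that tumour alone against the primary ones.

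The 8 receptors had a median log2 fold change of -0.15, 2 positive and 6 negative, and the smallest edgeR adjusted p among them was 0.728. FZD6 averaged 103 ± 9.05 CPM in the primary group and 98.8 ± 0.666 CPM in the recurrent group (SD, n = 3 each), a log2 fold change of -0.08 ± 0.13 (SE). FZD7 had -0.23 ± 0.20 and FZD5, the most positive receptor, 0.34 ± 0.30 (SE). On counts simulated for all genes with 3 libraries a group, 56 of 100 changes of 1 and 100 of 100 changes of 2 on the log2 scale were recovered. Changes were planted only in genes above a minimum level, and every gene had the same dispersion. These rates are therefore not the power for the members, whose own spread was not simulated.

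The 6 antagonists had 3 positive and 3 negative values, with a median log2 fold change of -0.10. DKK1 (chromosome 10, 52314296 to 52318042, plus strand), itself a β-catenin target as well as a blocker of the LRP coreceptors, stood at 42.4, 73.3 and 30.8 CPM in the primary group and 48.1, 130 and 102 CPM in the recurrent group. Recurrent replicate 1 lay inside the primary range, and the other 2 recurrent tumours lay above it. The log2 fold change was 0.92 ± 0.37 (SE; edgeR adjusted p = 0.579). DKK3 (chromosome 11, 11963106 to 12009769, minus strand), a divergent member of the DKK family that does not block LRP in the classical way, stood at 361, 294 and 369 CPM in the primary group and 303, 205 and 211 CPM in the recurrent group. Its groups overlapped through recurrent replicate 1 and primary replicate 2, and its log2 fold change was -0.53 ± 0.19 (SE; edgeR adjusted p = 0.551). DKK1 and DKK3 thus had values in opposite directions, each with recurrent replicate 1 among the primary values. That tumour's library name starts with IL, as do those of the 3 primary tumours, whereas recurrent replicates 2 and 3 start with NL; the labels do not say what the prefix stands for. Among the IL libraries alone the log2 fold change was -0.059 for DKK1 and -0.20 for DKK3, with no test possible, and the prefix and regrowth cannot be told apart in replicates 2 and 3. Within each library, the level of DKK1 per kilobase divided by that of DKK3 was 0.269, 0.573 and 0.191 in primary and 0.363, 1.45 and 1.12 in recurrent tumours. Whether it exceeds 1 depends on the gene length used, as given above. This ratio too was formed after the values had been seen and was not tested.

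SFRP1 (chromosome 8, 41261958 to 41309497, minus strand), a decoy that holds Wnt ligands away from Frizzled, stood at 323, 230 and 281 CPM in the primary group and 285, 181 and 196 CPM in the recurrent group. Its log2 fold change was -0.35 ± 0.20 (SE; edgeR adjusted p = 0.646). SFRP4 (chromosome 7, 37905932 to 38025695, minus strand), of the same family, stood at 32.3, 21.7 and 23.7 CPM in the primary group and 38.9, 27.0 and 20.9 CPM in the recurrent group, a log2 fold change of 0.15 ± 0.23 (SE). FRZB had 1.90, 2.39 and 4.50 CPM in the primary group and 1.24, 2.41 and 0.223 CPM in the recurrent group, and DKK2 0.223 to 2.65 CPM over all 6. For each of these 4 antagonists the groups overlapped.

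**Figure D4:**
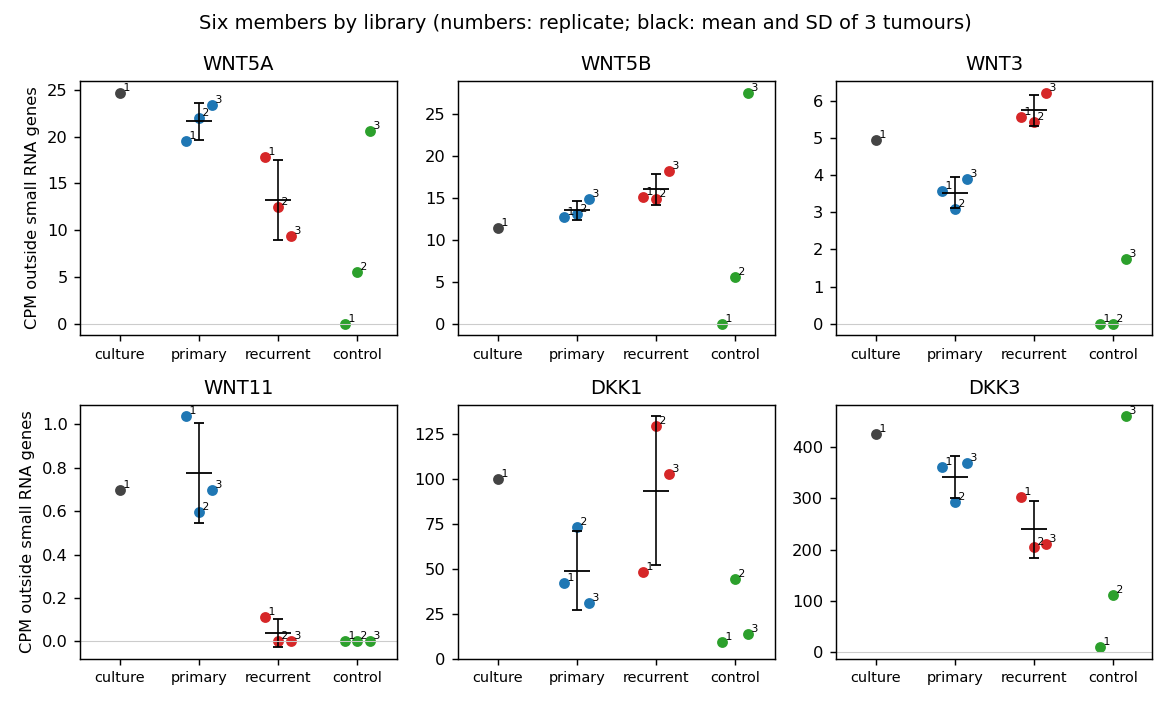
Points give the level of WNT5A, WNT5B, WNT3, WNT11, DKK1 and DKK3 in each library, in CPM of counts outside structural small RNA genes on linear axes, numbered by replicate, with black bars for the mean and SD of the 3 tumours of a group. Recurrent tumours lie wholly below primary ones for WNT5A and WNT11 and wholly above for WNT5B and WNT3, while recurrent replicate 1 lies among the primary values for DKK1 and DKK3.

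The call for 2 members depended on the filter. With no filter on low counts, edgeR gave DKK1 an adjusted p of 5.38e-06 and WNT5A one of 0.0384, with log2 fold changes of 0.92 and -0.74, and called 1.36% of 30188 genes. Over 12 settings the adjusted p ran from 5.38e-06 to 0.887 for DKK1 and from 0.0384 to 0.887 for WNT5A. DESeq2 and limma-voom called no member, with 4 and 6 members at an unadjusted p under 0.05, and 0.348% and 0% of all genes. The graft share was lower in the recurrent tumours, at 35.1% ± 6.84, than in the primary ones, at 50.8% ± 11.9 (SD, n = 3 each). With that share as a covariate in edgeR, the log2 fold changes were 0.87 for DKK1, -0.70 for WNT5A, -4.89 for WNT11, -0.57 for DKK3 and 0.81 for WNT3. Members at an unadjusted p under 0.05 then numbered 2 in place of 5. They were WNT11, again as a description, and FZD5, whose log2 fold change went from 0.34 to 0.93. The astrocyte marker list summed to 1449 to 2048 CPM in the primary group and 966 to 1197 CPM in the recurrent group. Log2 fold changes were negative for its 6 tested genes of 8. Of its untested genes, AQP4 averaged 0.278 CPM in the primary group and 0 in the recurrent group. ALDH1L1 went the other way, from 0.0576 to 0.227 CPM, and both rest on few counts. The list of pericyte, fibroblast and meninges markers summed to 1509 to 2810 CPM and 1191 to 1714 CPM in the same groups. Log2 fold changes were negative for its 5 tested genes of 8, led by COL1A1 at -1.35 and PDGFRB at -0.93. Its untested genes had few counts and were mixed. From primary to recurrent, LUM averaged 0.134 and 0 CPM, PTGDS 0.205 and 0.142 CPM, and DCN 0.254 and 0.304 CPM. The line grown in vitro carried these lists at 603 and 646 CPM, and GFAP is on the U251N marker list too. The part of these markers in the member values was not tested. In bulk tissue fewer cells of a type, less RNA per cell and a change in the grafted cells themselves cannot be told apart. The microglia and macrophage list stayed at 1.88 to 4.57 CPM over the 6 tumours, with 6 of its 8 genes at 0, and the endothelium list at 10.1 to 20.7 CPM.

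The rest of the pathway was looked at through 5 lists written from textbook knowledge, and none held a gene with an edgeR adjusted p under 0.05 between recurrent and primary tumours, where the smallest was 0.521. From each list the 3 genes with the smallest p are named. Of 20 coreceptor and R-spondin genes, 14 were tested, with 7 positive and 7 negative and a median log2 fold change of 0.06. LRP6, the coreceptor of the canonical branch, stood at 89.7 ± 19.2 CPM in the primary group and 118 ± 15.2 CPM in the recurrent group, and GPC4, a glypican that carries Wnt on the cell surface, at 144 ± 24.8 and 225 ± 59.6 CPM (SD, n = 3 each). GPC3, another glypican, averaged 0.168 ± 0.190 and 1.47 ± 0.501 CPM in the same groups (SD, n = 3 each). It had 3, 0 and 14 counts in the primary tumours and 36, 25 and 30 in the recurrent tumours. GPC3 passed the filter only through the recurrent tumours, so its difference is a description. The values of LRP6, GPC4 and GPC3 were thus all higher in the recurrent group, without passing the adjusted threshold.

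Of the 8 genes for ligand secretion and inactivation, 7 were tested, with 5 positive and 2 negative and a median of 0.11. APCDD1, a membrane inhibitor of Wnt reception, stood at 24.3 ± 2.78 CPM in the primary group and 16.2 ± 5.27 CPM in the recurrent group (SD, n = 3 each). SOSTDC1 had a log2 fold change of -1.28, and PORCN, the acyltransferase that puts the lipid on Wnt, one of 0.31. All 24 genes of the β-catenin relay were tested, 15 positive and 9 negative with a median of 0.10, led by the scaffold APC at 0.35 ± 0.17, the repressor TCF7L1 at 0.39 ± 0.19 and the corepressor TLE4 at 0.35 ± 0.20 (log2 fold change ± SE). No gene of the relay reached an unadjusted p under 0.05.

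Of 17 feedback and target genes, 13 were tested, with 5 positive and 8 negative and a median log2 fold change of -0.26. CCND1, a cyclin of the G1 phase, stood at 184 ± 44.0 CPM in the primary group and 279 ± 27.8 CPM in the recurrent group, and TNFRSF19, a receptor induced by β-catenin, at 175 ± 20.1 and 126 ± 17.3 CPM (SD, n = 3 each). APCDD1, on this list as well, is given above. AXIN2, the usual readout of β-catenin activity, stood at 13.4, 8.41 and 10.2 CPM in the primary group and 9.36, 9.29 and 5.16 CPM in the recurrent group, with overlapping groups, and is named here after its values were seen. The 18 genes of the planar polarity and calcium branch gave 13 positive and 5 negative values with a median of 0.10. Among them CELSR1, a polarity cadherin, stood at 13.2 ± 2.97 CPM in the primary group and 20.7 ± 1.03 CPM in the recurrent group (SD, n = 3 each), while PLCB1 had a log2 fold change of -0.61 ± 0.22 and DAAM2 one of -1.50 ± 0.65 (SE).

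The culture was set beside the 6 tumours to see which family members differ between the dish and the brain. With 1 culture library there is no test, so a gene was called when the culture lay outside the range of all 6 tumours and at least 2-fold from their mean. Of the 39 members, 24 had at least 10 counts in the culture or on average in the tumours. Of these, 4 were called higher in the culture, against 14.4% of 19449 genes, and 2 lower, against 5.3%. The culture lay outside the tumour range for 11 members, 8 above and 3 below, where 50.3% of all genes lay outside. The median log2 ratio of culture over tumour mean was 0.30 for the members and 0.09 for all genes.

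SFRP1 was the largest by level of the members called higher. It reached 728 CPM in the culture (exact Poisson 95% interval 722 to 735) against 249 ± 55.7 CPM in the tumours (SD, n = 6), a ratio of 2.92, and made up 53.6% of the antagonist level per kilobase in the culture against 26.1% to 40.3% in the tumours. FZD5 reached 21.2 CPM (20.1 to 22.4) against 10.2 ± 3.36 CPM in the tumours, a ratio of 2.09. WNT2B reached 4.45 CPM against 2.06 ± 0.387 CPM, a ratio of 2.16. WNT10B had 29 counts in the culture against 0 to 4 in a tumour, a ratio of 13.3 that rests on few counts. FZD5 was not called without primary replicate 2, nor against the recurrent tumours alone. Other members gained a call in some settings: DKK1 and WNT6 against the primary tumours alone, WNT6 without recurrent replicate 1, and WNT11 without primary replicate 1 or against the recurrent tumours alone.

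SFRP4 went the other way, at 8.06 CPM in the culture (7.37 to 8.80) against 20.9 to 38.9 CPM in the tumours, whose mean was 3.40 times the culture level. As a result SFRP1 exceeded SFRP4 68.4-fold per kilobase in the culture and 5.08-fold to 9.0-fold in the tumours. WNT10A, with 7 counts in the culture and 10 to 52 in a tumour, was the other member called lower in the culture, with a tumour mean 9.0 times the culture level. FZD6 lay clearly above the tumour range, at 185 CPM (182 to 189), but its ratio of 1.83 was under the 2-fold limit. FZD3, DKK3 and WNT5A also lay above the range, at ratios of 1.61, 1.46 and 1.42, and WNT5B below it. FZD7, FZD1, FZD4, DKK1, WNT3 and WNT7B lay inside it.

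**Figure D5:**
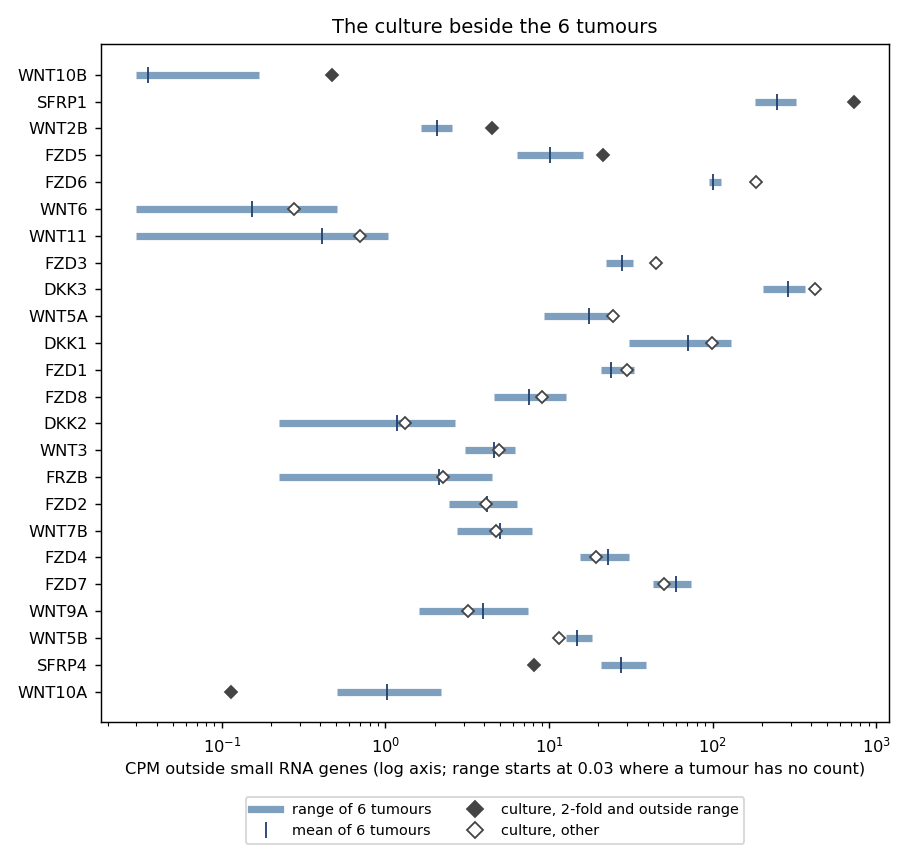
For 24 members, blue bars give the range and ticks the mean of the 6 tumours and diamonds the culture, in CPM of counts outside structural small RNA genes on a log axis, with filled diamonds for members outside the tumour range and at least 2-fold from the mean. SFRP1, FZD5, WNT2B and WNT10B are filled to the right, SFRP4 and WNT10A to the left, and FZD6 lies right of its narrow range at 185 CPM.

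Several feedback and target genes of β-catenin stood lower in the culture than in the tumours. Of the 13 listed genes with enough counts, 6 were called lower in the culture and 0 higher, against 5.3% and 14.4% of all genes, and 8 lay below the tumour range and 1 above it. The median log2 ratio of culture over tumours was -0.81. The 6 are AXIN2, NKD1, LEF1, TCF7, SP5 and LGR5, named after their values were seen. AXIN2 stood at 3.41 CPM in the culture and 5.16 to 13.4 CPM in the tumours. NKD1, a feedback inhibitor that binds Dishevelled, stood at 0.276 CPM against 3.34 to 6.21 CPM, and the R-spondin receptor LGR5 at 1.80 CPM against 11.4 to 29.4 CPM. The transcription factor LEF1 stood at 37.2 CPM against 86.6 to 156 CPM, and TCF7 at 14.4 CPM against 25.5 to 43.3 CPM. MYC, ZNRF3 and DKK1, on the same list, lay inside the tumour range.

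In the other lists few genes were called, and LEF1, TCF7 and LGR5 also stand in them. Of the relay genes, TCF7L2 was higher in the culture, at 104 CPM against 50.3 ± 7.74 CPM (SD, n = 6), so that the TCF and LEF factors did not all lie on the same side. ROR1, a coreceptor for WNT5A, was lower in the culture, at 7.30 CPM against 13.8 to 26.1 CPM. DAAM1 was higher and NFATC2 lower among the polarity and calcium genes, APC2 was lower in the relay, and KREMEN2 and RSPO3 were higher at under 1 CPM. These genes too are named after their values were seen. The neuron marker list summed to 620 CPM in the culture and 1007 to 1680 CPM in the tumours, mostly through NEFL, while SYT1 and GAD1 were higher in the culture. The astrocyte list summed to 603 and 966 to 2048 CPM, and the pericyte, fibroblast and meninges list to 646 and 1191 to 2810 CPM. The part of these lists in the differences was not tested.

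The controls were used to see how many human-assigned counts a brain without a tumour gives. Control replicate 3, with 4.90% graft reads and the U251N marker list at 12872 CPM, did not serve as that background, which is read from replicates 1 and 2. Control replicates 1 and 2 gave 18 and 53 counts over all 39 members, so most members lay at or under their limits there. SFRP4, FZD4, WNT3, WNT7B and WNT9A had 0 counts in both, and SFRP1 had 1 count in each. Above the limits lay FZD6, with 7 counts in each, or 65.4 and 38.8 CPM. In replicate 2 so did DKK3, DKK1, FZD7 and FZD3, at 111, 44.4, 38.8 and 33.3 CPM, from 20, 8, 7 and 6 counts. That DKK1 level lay inside the tumour range and that FZD3 level just above it. In control replicate 3 SFRP1 stood at 289 CPM, DKK3 at 460 CPM, FZD6 at 106 CPM and SFRP4 at 53.1 CPM, inside or above the ranges of the tumours. DKK1 was lower there than in any tumour, at 13.6 CPM. WNT9A stood out the other way, with 75 counts or 26.2 CPM against 1.61 to 7.44 CPM in the tumours, and took 37.9% of the ligand level per kilobase.

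Between the 6 tumours and the 3 controls, edgeR called 0 of 22 tested members, against 6.02% of all tested genes, and 5 stood at an unadjusted p under 0.05 against 20.7%. These were WNT9A with a log2 fold change of -2.16 ± 0.64 (SE; edgeR adjusted p = 0.0733), DKK1 with 1.87 ± 0.70 (SE; edgeR adjusted p = 0.155), WNT3 with 1.58, FZD7 with 0.67 and FRZB, which had no count in any control. FRZB, and WNT3 with 5 counts in control replicate 3 alone, passed the filter only through the tumours. Both are therefore given as a description. Without control replicate 3, DKK1 had 0.92 (edgeR adjusted p = 0.596) and FZD7 0.83 (edgeR adjusted p = 0.325), while WNT3 had no count left in a control. The median log2 fold change of tumours over controls was 0.32 for the members and 0.22 for all genes. These medians were 1.92 and 1.16 without control replicate 3, and 0.02 and -1.89 with DESeq2, which called 0 members and 7.45% of all genes, with 5 members at an unadjusted p under 0.05. Without control replicate 3, 3 antagonists were called higher in the tumours, where 8.85% of all genes were: SFRP1 (edgeR adjusted p = 0.000208), DKK3 with a log2 fold change of 1.81 (edgeR adjusted p = 0.0298), and SFRP4 (edgeR adjusted p = 0.0388). SFRP1 and SFRP4 passed the filter there only through the tumours, so their calls are given as a description. The pooled SFRP1 level of the tumours was 36.1 times that of the remaining controls (exact 95% interval for counting error 9.99 to 298, from 36717 and 2 counts), and SFRP4 has no fold because both were at 0. Without control replicate 2, WNT9A was called lower in the tumours, at -2.47 (edgeR adjusted p = 0.0455), where 3.45% of all genes were. The sign of the WNT9A difference turned without control replicate 3, the only control with a count of it. Over 9 settings the adjusted p ran from 0.000208 to 0.815 for SFRP1, 0.0298 to 0.991 for DKK3, 0.0388 to 0.973 for SFRP4 and 0.0368 to 0.461 for WNT9A.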

How the data were processed

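The authors deposited 1 table of estimated counts per gene, not scaled between libraries. Salmon 1.10.3, STAR, DESeq2 and GRCh38 are named, without their roles, per the submitters' processing notes. Per the labels, libraries were ribosomal-RNA depleted and reverse-stranded, xengsort gave the graft percentages, and RUVSeq was run with the controls as anchors. RUVSeq settings, annotation release, treatment of shared reads and the xengsort classes counted were not given in the sources used here. Of the gene IDs, 58261 matched GENCODE release 29, which gave gene types, exon lengths and coordinates.

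Members, lists and tests were chosen with earlier results of these data known. Levels are CPM of counts outside 5190 structural small RNA genes, and per-kilobase levels divide by the union of exons. Small RNA genes took 5.42% of the culture, 6.01% to 14.1% of the tumours and 92.1%, 89.4% and 31.2% of control replicates 1, 2 and 3. Estimated counts were rounded and tested with edgeR 4.0.16 (R 4.3.3; TMM, default filter, quasi-likelihood F test, two-sided, Benjamini-Hochberg over all tested genes, 0.05). The SE is the log2 fold change divided by the square root of F. Alternatives used RLE scaling, DESeq2 1.42.0, limma-voom 3.58.1, no filter, small RNA genes left out, the graft percentage as a covariate, subsets of tumours and each library left out. The tests were checked on simulated counts.

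Members with a mean of at least 100 counts over the tumours, or with a p under 0.05 between the tumour groups, are named with their values, and from each pathway list the 3 genes with the smallest p. Exceptions are marked as named after their values were seen. The replicate numbers follow record order and pair no samples.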

Additional observations from a re-analysis of the deposited data

How the results depend on the processing

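No paired analysis was possible because the labels give no replicate numbers. Between recurrent and primary tumours, the number of members called was 0 under RLE scaling, DESeq2, limma-voom, the graft covariate, the removal of small RNA genes and each tumour left out (range 0 to 0). It was 2 with no filter on low counts, and the cause was not tested. Between tumours and controls it was 1 with no filter, 1 without control replicate 2 and 3 without control replicate 3 (range 0 to 3 over the controls left out). At 2-fold the culture gave 5 to 8 called members over the settings tried. At 4-fold in place of 2-fold, 2 members and 2 feedback and target genes were called in the culture. The settings for the feedback and target genes were chosen after seeing the data, and gave 6 to 8 at 2-fold.

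Over the 17 members named with their values (at least 100 counts, or an unadjusted p under 0.05), 14 alternative log2 fold changes between recurrent and primary tumours turned sign and 205 kept direction and side of the threshold. Of the 5 other tested members, 3 also took both signs: WNT9A from -0.50 to 0.94, WNT10A from -0.21 to 0.90 and DKK2 from -0.63 to 0.83. Against the primary tumours, recurrent replicate 1, the only recurrent tumour whose library name has the primary tumours' prefix, gave -0.059 for DKK1, -0.14 for FZD1, 0.33 for FZD2, 0.062 for FZD4, -0.15 for FZD5 and -0.18 for WNT7B. With the graft covariate FZD3 had 0.12 and SFRP4 -0.083. With 1 tumour left out, the lowest and highest values were -0.14 (without recurrent replicate 2) and 0.22 for FZD1, -0.15 and 0.13 for FZD3 (positive without primary replicate 1 or recurrent replicate 1), -0.0054 (without recurrent replicate 2) and 0.57 for FZD5, -0.14 and 0.0012 (without primary replicate 2) for FZD6, and -0.12 (without recurrent replicate 1) and 0.32 for SFRP4. Between tumours and controls, they were -0.072 without control replicate 1 and 1.81 for DKK3, and, without replicate 2 and then without replicate 3, -0.73 and 1.80 for WNT5B and -2.47 and 9.17 for WNT9A, the last against 2 controls at 0 and therefore no measured fold. The causes were not tested.

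Control replicates 1 and 2 are too shallow to place most members, and 1 culture library allows no test.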
